A study of Mus musculus with 4 samples.

Results

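The CC and CXC chemokine ligands were examined in whole salivary glands (SGs) of mice with and without MyD88. The 28 ligands were taken by gene symbol from the 34844 named genes of the array: Ccl or Cxcl followed by a number and at most 1 letter, without Ccl19, Ccl28, Cxcl9, Cxcl10 and Cxcl13. The rule itself uses symbols alone. They comprised 18 CC and 10 CXC ligands on 36 probes, and 20 of them (14 CC and 6 CXC) passed the filter on dim probes and were tested. Each of these 20 was well above background on all 4 arrays, so that none passed through 1 genotype alone.

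Total RNA of submandibular and sublingual glands from female C57/BL6 mice at 10 weeks of age was hybridised to 1-colour Agilent arrays of 60-mer probes. There were 2 arrays labelled Myd88-KO (genotype Myd88-null, here Myd88-/-) and 2 labelled Wildtype (here Myd88+/+). According to the study's methods, both genotypes were offspring of heterozygous parents, and no tissue-specific driver of the deletion is named. The study's legends name submandibular glands only for these arrays and more samples per genotype than the arrays analysed here. The labels do not say whether an array held 1 mouse or a pool, and p-values measure only the spread between these arrays. A level below is the log2 processed signal minus the 75th percentile of the array, so that 0 is the signal that 75% of spots do not exceed, and a difference is Myd88-/- minus Myd88+/+ on that scale.

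Chemokines are small secreted proteins that bind G protein-coupled receptors and guide the migration of leukocytes. CC and CXC ligands differ in whether their first conserved cysteines are adjacent or separated by another residue. MyD88 is the adaptor that links Toll-like receptors and interleukin-1 receptors to NF-kB, a transcription factor known to induce many inflammatory chemokines, whereas homeostatic chemokines are made without a stimulus.

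The probe for Myd88 itself read 1.51 and 1.41 on the Myd88-/- arrays and 1.15 and 1.07 on the Myd88+/+ arrays. It did not show a loss of signal under the Myd88-/- label, where both arrays read above both Myd88+/+ arrays. The difference was 0.35 (limma unadjusted p = 0.0332, limma adjusted p = 0.264). Which exons the null allele lacks is not given in the sources used here. Whether the probe lies outside them was not tested, and the labels could not be checked. The genotypes are given as labelled. Between 52.2% and 74.2% of probes were well above background on an array, all 13 salivary epithelium markers among them on all 4 arrays. The 4 arrays lay on 1 slide in 1 scan.

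Ccl8 and Ccl5 were the ligands with a difference of at least 1 log2 unit, and both were lower under the Myd88-/- label. Cxcl12 was lower by a smaller amount, Cxcl1 and Cxcl14 were higher, and the other 15 differed by -0.21 to 0.31. No ligand passed the adjusted test, nor did any of the 22312 genes tested (limma with Benjamini-Hochberg adjustment, 0% called). At an unadjusted p under 0.05, 3 of the 20 ligands were lower, against 6.83% of all genes tested, and 2 were higher, against 9.82%. Of the 20 ligands, 9 were below 0 in their difference, against 40.4% of all genes, and 16 lay within 0.5 of 0, against 83.7%. The median difference of the 20 was 0.04, beside 0.06 over all genes tested. A difference of -1 or less was found for 2 ligands and for 3.42% of all genes, and one of 1 or more for 0 ligands and 1.37%.

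**Figure D1:**
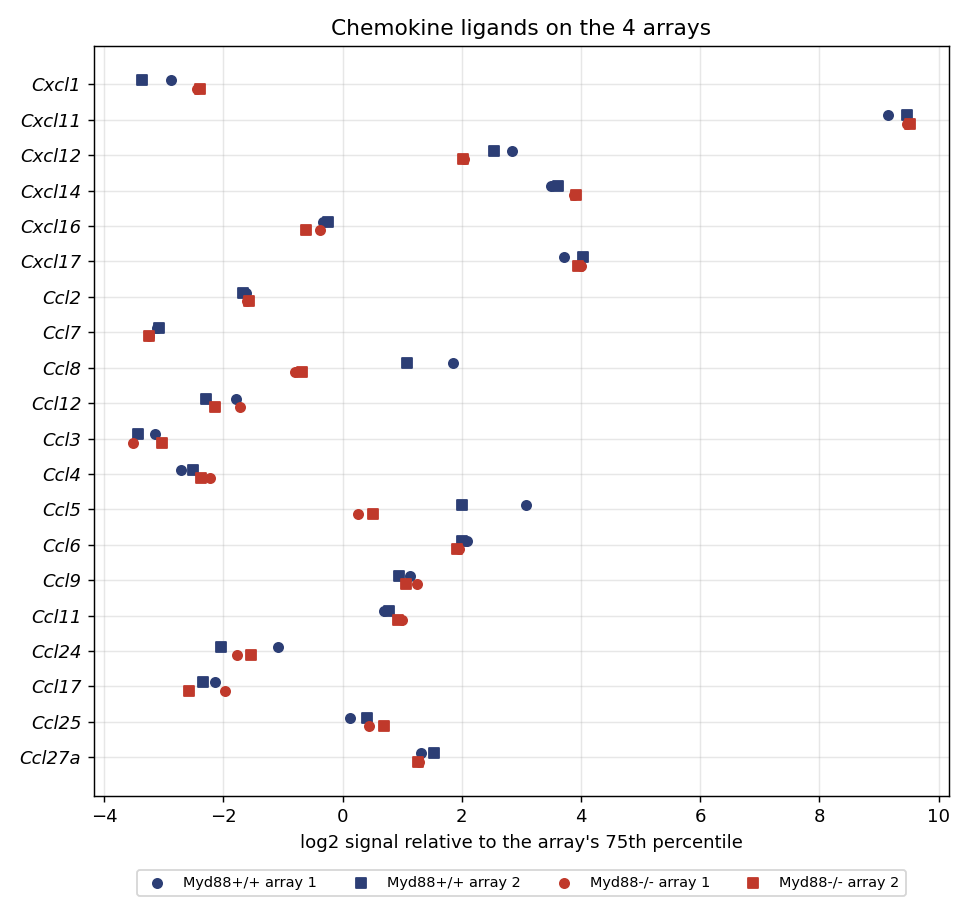
Levels of the 20 tested chemokine ligands (rows) on the 4 arrays, as log2 signal relative to the 75th percentile of the array; red marks Myd88-/- and blue Myd88+/+, circles array 1 and squares array 2. Ccl5 and Ccl8 show the widest gaps between the genotypes, and rows are not to be set against each other because probes differ.

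Among the ligands grouped here as monocyte-attracting, Ccl8 (also MCP-2) read -0.80 and -0.67 on the Myd88-/- arrays and 1.85 and 1.09 on the Myd88+/+ arrays. Both Myd88-/- arrays were below both Myd88+/+ arrays, and Myd88+/+ array 1 was the highest. The difference was -2.21 (SE 0.30, n = 2 arrays each, 95% interval -3.06 to -1.36), or 4.62-fold lower, with a limma adjusted p of 0.194. Leaving out 1 array at a time gave -2.59 to -1.83. When arrays were scaled to their median instead, Ccl8 had a limma adjusted p of 0.00275. That fit gave every tested ligand the same SE of 0.54, so this value does not rest on the spread of Ccl8 itself. With trended and robust moderation the limma adjusted p of Ccl8 was 0.0365. In these bulk samples fewer cells of a type and less RNA per cell cannot be told apart.

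The Ccl8 probe lies on chromosome 11 at 81930108 to 81930167 (NCBI37/mm9). The 250 bases before the gene's start are shown because this ligand differed most. They come from RefSeq (GRCm38.p6, chr11:82114935-82115184, + strand), and the capitals mark TATAAA, 32 to 27 bases before the start. TATAAA on either strand was found in 13.0% of 27018 promoter windows of this length. The NF-kB consensus, searched on both strands, was not found in these letters.
Ccl8: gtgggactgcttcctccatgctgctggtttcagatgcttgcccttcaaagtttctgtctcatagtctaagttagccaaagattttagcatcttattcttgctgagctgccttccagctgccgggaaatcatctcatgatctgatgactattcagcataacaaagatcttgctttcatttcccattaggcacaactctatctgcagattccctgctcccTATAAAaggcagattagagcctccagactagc

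The 3 neighbours placed with Ccl8 in this grouping read nearly alike between the genotypes. Ccl2 (MCP-1), the main attractant of CCR2-bearing monocytes, read -1.61 and -1.57 on the Myd88-/- arrays against -1.63 and -1.67, with a difference of 0.06 and a 95% interval of -0.21 to 0.34. Ccl7 read -3.25 and -3.26 against -3.11 and -3.07, a difference of -0.16. Ccl12 read -1.73 and -2.14 against -1.80 and -2.30, a difference of 0.11. The Ccl7 groups did not overlap and the Ccl12 groups did, and neither difference passed a limma unadjusted p of 0.05.

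Among the inflammatory CC ligands of the second group, which act on T cells and myeloid cells, Ccl5 (RANTES), which is known to be made by activated T cells and natural killer cells, read 0.26 and 0.51 on the Myd88-/- arrays and 3.07 and 2.01 on the Myd88+/+ arrays. The groups did not overlap, and Myd88+/+ array 1 was again the highest. The difference was -2.16 (SE 0.41, n = 2 arrays each, 95% interval -3.33 to -0.98), or 4.45-fold lower, with a limma adjusted p of 0.204. It was -2.69 to -1.62 when 1 array at a time was left out. Its limma adjusted p under median scaling was 0.00394, with the SE of 0.54 that all ligands shared in that fit.

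The other 4 ligands of this group lay within 0.31 of no difference. Ccl3 (MIP-1α) read -3.52 and -3.03 on the Myd88-/- arrays against -3.14 and -3.43, and its groups overlapped. Ccl4 (MIP-1β) read -2.23 and -2.38 against -2.71 and -2.51, a difference of 0.31 with groups that did not overlap. Both are inflammatory ligands of macrophages and T cells. Ccl6 read 1.96 and 1.92 against 2.08 and 2.01, a difference of -0.10. Ccl9 read 1.26 and 1.07 against 1.14 and 0.95, a difference of 0.12. Ccl6 and Ccl9 are rodent ligands of CCR1 made by myeloid cells, and neither passed a limma unadjusted p of 0.05.

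The ligands of both groupings lie in CC clusters of chromosome 11, which holds 12 of the 28 ligands. In the first cluster Ccl8, 79.5 kb from the Ccl2 probe, was lower by 2.21 log2 units, whereas Ccl12, at 66.1 kb, Ccl11, at 25.4 kb, and Ccl7, at 10.0 kb, had differences of 0.11, 0.22 and -0.16. In the second cluster Ccl5, at 1488.6 kb, was lower by 2.16 log2 units, and Ccl9, at 1537.6 kb, and Ccl4, at 1627.4 kb, had differences of 0.12 and 0.31. The difference between neighbouring genes was not itself tested.

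**Figure D2:**
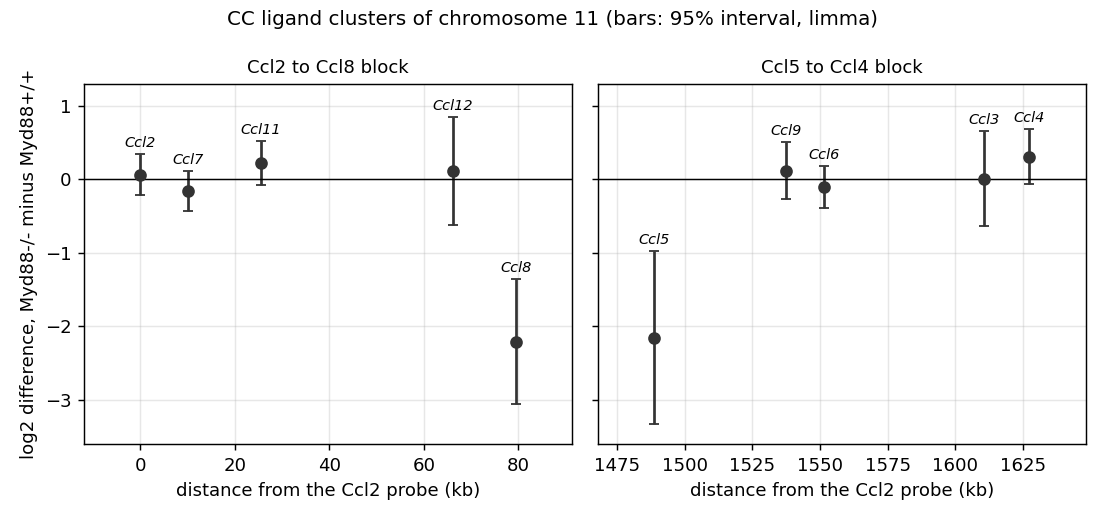
Log2 differences (Myd88-/- minus Myd88+/+) of the CC ligands on chromosome 11 against the distance from the Ccl2 probe in kb, in 2 blocks; points are limma estimates and bars 95% intervals. Ccl8 and Ccl5 lie near -2, and the intervals of the other 8 genes include 0.

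Among the neutrophil-attracting CXC ligands, which carry an ELR motif and act on CXCR2, only Cxcl1 was well above background on enough arrays to be tested. Cxcl1 (KC) read -2.44 and -2.40 on the Myd88-/- arrays and -2.89 and -3.37 on the Myd88+/+ arrays. Both Myd88-/- arrays were above both Myd88+/+ arrays. The difference was 0.71 (SE 0.20, n = 2 arrays each, 95% interval 0.14 to 1.28), or 1.64-fold higher, with a limma adjusted p of 0.251. Cxcl2 was well above background on Myd88-/- array 1 alone, where it read -1.63, and read -6.20, -6.91 and -6.51 on the other arrays. Cxcl5 was well above background on Myd88-/- array 2 alone, at -3.71, and Cxcl3 and Cxcl15 on no array.

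Cxcl1, Cxcl2 and Cxcl3 each hold a match to the NF-kB consensus on both strands within 250 bases before the start, and these windows are shown because NF-kB lies downstream of MyD88. Capitals mark the 11 bases that the matches on both strands cover, which read the same in all 3 genes. The sequences are from RefSeq (GRCm38.p6, + strand), at chr5:90891154-90891204 for Cxcl1, chr5:90903782-90903832 for Cxcl2 and chr5:90786008-90786058 for Cxcl3. The match ends 61, 87 and 63 bases before the start.
Cxcl1: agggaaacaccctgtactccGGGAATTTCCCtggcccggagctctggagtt
Cxcl2: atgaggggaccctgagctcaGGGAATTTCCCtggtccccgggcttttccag
Cxcl3: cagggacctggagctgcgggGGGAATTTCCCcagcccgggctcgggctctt

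Of 17 ligands with a promoter in the RefSeq table, 6 held the NF-kB consensus in the 250 bases, against 7.01% of all 27018 windows. The others were Ccl1, Ccl20 and Ccl9. Among these 6, Cxcl1 and Ccl9 were tested and had differences of 0.71 and 0.12, and the other 4 were not tested. Of the tested ligands, Ccl5, Ccl2, Ccl4, Ccl7, Ccl11, Ccl24, Cxcl11, Cxcl16 and Cxcl17 had no promoter available and were not searched. A list of NF-kB-inducible genes other than chemokines had 13 tested genes. Of these, 0 were lower and 0 higher at a limma unadjusted p under 0.05, against 6.83% and 9.82% of all genes tested. The median difference of the 13 was -0.03.

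Among the homeostatic and other CXC ligands, Cxcl12 (SDF-1), a product of stromal cells and the ligand of CXCR4, read 2.03 and 2.02 on the Myd88-/- arrays and 2.84 and 2.55 on the Myd88+/+ arrays. The groups did not overlap. The difference was -0.67 (SE 0.14, n = 2 arrays each, 95% interval -1.07 to -0.26), or 1.59-fold lower, with a limma adjusted p of 0.209. A second Cxcl12 probe, for another transcript, read 0.04 and -0.03 against 1.36 and 0.83, a difference of -1.09 in the same direction. Of 6 fibroblast markers, 4 were lower at a limma unadjusted p under 0.05, against 6.83% of all genes tested, with a median difference of -0.46. The part of these markers in the Cxcl12 difference was not tested.

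The 250 bases before the Cxcl12 start, from RefSeq (GRCm38.p6, chr6:117168285-117168534, + strand), are shown beside that of Ccl8 because they are of another kind. The capitals mark GGGCGG on either strand, the GC box letters, which 32.9% of all windows hold. TATAAA and the NF-kB consensus were not found in these letters.
Cxcl12: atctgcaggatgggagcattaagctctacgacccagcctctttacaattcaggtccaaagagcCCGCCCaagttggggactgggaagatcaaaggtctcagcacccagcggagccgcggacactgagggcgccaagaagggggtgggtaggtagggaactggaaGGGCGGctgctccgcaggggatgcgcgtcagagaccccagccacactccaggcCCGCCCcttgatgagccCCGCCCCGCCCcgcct

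Cxcl14, a ligand made by epithelial cells, read 3.89 and 3.91 on the Myd88-/- arrays and 3.50 and 3.62 on the Myd88+/+ arrays. The Myd88-/- arrays were higher without overlap. The difference was 0.34 (SE 0.11, n = 2 arrays each, 95% interval 0.04 to 0.64), or 1.27-fold higher, with a limma adjusted p of 0.267. Cxcl17, a mucosal ligand, read 3.99 and 3.94 against 3.72 and 4.04, and the groups overlapped. Its difference was 0.09 (SE 0.15, 95% interval -0.34 to 0.53, limma adjusted p = 0.800). Cxcl16, a membrane-bound ligand of CXCR6, read -0.39 and -0.62 against -0.33 and -0.24, a difference of -0.21.

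Cxcl11, an interferon-inducible ligand of CXCR3, read 9.47 and 9.52 on the Myd88-/- arrays and 9.15 and 9.48 on the Myd88+/+ arrays. The groups overlapped, with a difference of 0.18 (SE 0.15, 95% interval -0.26 to 0.61, limma adjusted p = 0.609). Its other probe read 4.03 and 4.18 against 3.95 and 4.27, a difference of -0.01. The brighter probe (chr5, 92788567 to 92788626, NCBI37/mm9) shares a run of 20 bases with probes of 5 other genes on the same strand, Elk1, Med16, Gm10856, Ndor1 and Glrx2. The mean levels of those 5 probes ran from 8.39 to 10.4. On the opposite strand 2 probes hold such a run, at mean levels of 3.48 and 4.07. The other Cxcl11 probe shared no such run with any of 55681 probes, and of the 34 probes of the other ligands 2 did, with 1 probe each. The part of the probe that holds the run is shown because other probes hold the same letters. It lies at chr5:92788588-92788617 (NCBI37/mm9, - strand), with 20 shared bases in capitals.
Cxcl11: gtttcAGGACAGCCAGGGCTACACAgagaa
Whether this signal comes from Cxcl11 transcripts was not tested.

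Among the CC ligands that attract eosinophils through CCR3, Ccl11 (eotaxin) read 1.00 and 0.93 on the Myd88-/- arrays against 0.70 and 0.78, a difference of 0.22 with groups that did not overlap. Ccl24 read -1.77 and -1.54 against -1.09 and -2.04, and its difference of -0.09 had a 95% interval of -1.15 to 0.97. Ccl26 was well above background on Myd88+/+ array 1 alone. Among the ligands of CCR4 and CCR8, Ccl17 read -1.98 and -2.57 against -2.14 and -2.34, with overlapping groups. Ccl22 was well above background on no array, and Ccl1 on Myd88-/- array 2 and Myd88+/+ array 1.

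Of the homeostatic ligands of epithelial barriers, Ccl25, the ligand of CCR9, read 0.44 and 0.69 on the Myd88-/- arrays against 0.13 and 0.40, a difference of 0.30. Ccl27a, a ligand of CCR10, read 1.28 and 1.27 against 1.31 and 1.54, a difference of -0.15. Its other probes gave -0.06 and 0.41, so that the 3 probes did not share a direction. Ccl20, the ligand of CCR6, was well above background on no array. Over the 15 ligands with an unadjusted p of 0.05 or more, the limma adjusted p ran from 0.357 to 0.990. The 95% interval lay within 1 log2 unit of 0 for 14 of them, and Ccl24 was the exception.

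**Figure D3:**
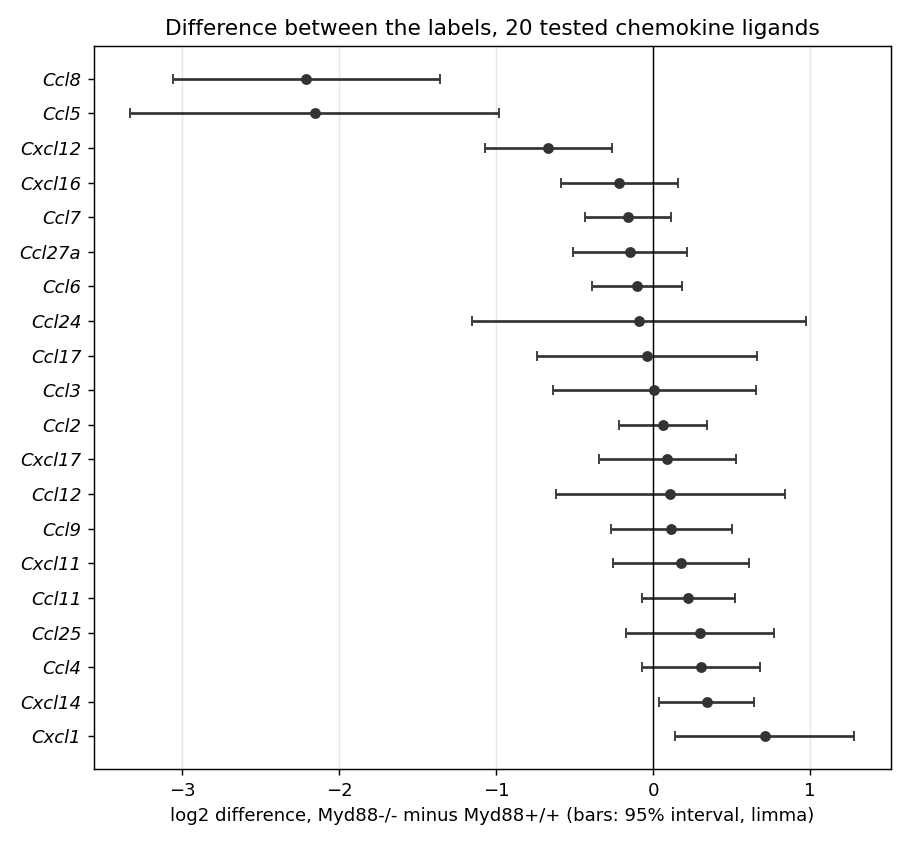
Log2 difference (Myd88-/- minus Myd88+/+) of the 20 tested ligands in order of size; points are limma estimates and bars 95% intervals. The intervals of Ccl8, Ccl5 and Cxcl12 lie below 0, and those of Cxcl1 and Cxcl14 above it.

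The genotypes did not overlap for 13 of the 20 ligands, against 52% of all genes tested. Of these, 7 ligands were lower (18.7% of all genes tested were) and 6 were higher (33.2%). Beside Ccl5, Ccl8 and Cxcl12, the lower ones were Ccl6, Ccl7, Ccl27a and Cxcl16. Beside Cxcl1 and Cxcl14, the higher ones were Ccl2, Ccl4, Ccl11 and Ccl25.

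Of the 5 ligands left out by the symbol rule and 4 other chemokines, 8 were tested, of which 2 were lower and 0 higher at a limma unadjusted p under 0.05. Over all genes tested the shares were 6.83% and 9.82%. Cxcl13, the attractant of B cells, read -1.75 and -1.93 on the Myd88-/- arrays and 0.83 and -0.59 on the Myd88+/+ arrays. Cxcl9 read -3.25 and -2.94 against -2.12 and -2.58. The differences were -1.96 and -0.75.

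The chemokine receptors on the array included several with lower levels on the Myd88-/- arrays. Of 24 receptor genes 18 were tested, and none passed the adjusted test. Among the 12 that were well above background on all 4 arrays, 5 were lower and 0 higher at a limma unadjusted p under 0.05, with a median difference of -0.34. In a separate fit of all 20515 genes well above background on all 4 arrays, 6.68% were lower and 11.6% higher at that threshold. The counts of receptors and markers come from the fit of all 22312 genes tested, whose p-values differ somewhat from those of the separate fit. The other 6 receptors passed the filter only through the Myd88+/+ arrays, which favours a higher level there. By the same test 4 of them were also lower, Ccr6, Cxcr5, Cxcr4 and Ccr10. Ccr7, the receptor that leads lymphocytes and dendritic cells into lymph nodes, read -3.56 and -3.02 on the Myd88-/- arrays and 1.64 and 0.43 on the Myd88+/+ arrays, a difference of -4.32. Ccr6, the receptor of Ccl20 and not well above background on Myd88-/- array 1, read -6.17 and -3.25 against 0.06 and -1.09. Cxcr3 read -2.95 and -2.61 against -0.99 and -1.90.

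Cxcr5, the receptor of Cxcl13 on B cells, was not well above background on either Myd88-/- array. It read -0.82 and -2.02 on the Myd88+/+ arrays, a mean 5.99-fold above the detection floor of the Myd88-/- arrays (limma adjusted p = 0.227). The same held for Cxcr4, the receptor of Cxcl12, at -1.42 and -2.72 and 3.80-fold above that floor (limma adjusted p = 0.214). For Ccr10 it was 1.22-fold (limma adjusted p = 0.198). The floor is the dimmest probe above background on a Myd88-/- array, or the receptor's own signal where that was higher. These folds take no account of the spread between arrays. For these receptors the filter also favoured a higher level on the Myd88+/+ arrays. The adjusted p-values belong to the limma difference between genotypes.

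**Figure D4:**
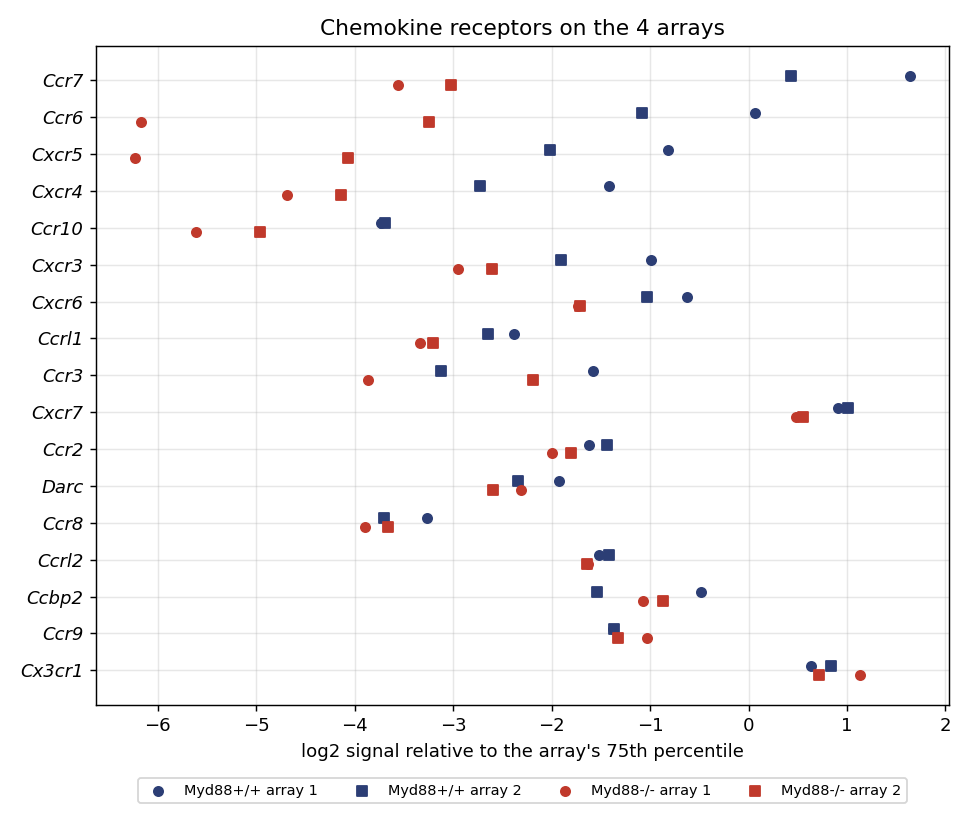
Levels of tested chemokine receptors on the 4 arrays, as log2 signal relative to the 75th percentile of the array, from the most negative difference at the top; red marks Myd88-/- and blue Myd88+/+. For Ccr7, Ccr6, Cxcr5 and Cxcr4 both Myd88-/- arrays lie below both Myd88+/+ arrays.

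Some lymphocyte markers were also lower on the Myd88-/- arrays. Of 4 B cell markers well above background on all 4 arrays, 3 were lower and 0 higher at a limma unadjusted p under 0.05. Over all genes well above background on all 4 arrays the shares were 6.68% and 11.6%. Another 3 B cell markers passed the filter only through the Myd88+/+ arrays. For all 7 the summed linear level was 3.26 and 3.15 on the Myd88-/- arrays against 16.4 and 9.52. Ms4a1 was not well above background on either Myd88-/- array. Of 5 T cell markers well above background on all 4 arrays, Cd2, Cd6 and Lck were lower by this test, and Cd3e and Cd4 had differences of -0.06 and -0.04. Another 4 passed the filter only through the Myd88+/+ arrays, and the sums of all 9 were 12.4 and 12.1 against 24.5 and 17.8. The highest sum in both lists was on Myd88+/+ array 1. These sums include the markers that passed only through the Myd88+/+ arrays, which favours a higher sum there. Of 10 macrophage markers 0 were lower and 1 was higher by the same test, against 6.83% and 9.82% of all genes tested. The median difference of the macrophage markers was 0.03.

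Lymph nodes were dissected away from the glands according to the labels. Of 3 lymph node stroma and vessel markers well above background on all 4 arrays, 1 was lower and 1 higher by the same test. Enpp2 was the lower one, with a difference of -0.54. Madcam1 was the higher one, at 2.29 and 2.05 on the Myd88-/- arrays against 1.31 and 1.33, a difference of 0.85. Over all such genes the shares were 6.68% and 11.6%. Glycam1, a product of lymph node venules, passed the filter only through the Myd88+/+ arrays and was not well above background on Myd88-/- array 1. It read -6.29 and -3.48 on the Myd88-/- arrays and 4.20 and 2.26 on the Myd88+/+ arrays. All 5 skeletal muscle markers that were well above background on all 4 arrays were lower, with a median difference of -5.07, and the sums of the 7 tested were 2.43 and 2.46 against 26.6 and 153. Of 13 salivary epithelium markers 1 was lower and 4 were higher, beside the same shares, with a median difference of 0.06. The part of these markers in the differences of Ccl5, Ccl8, Cxcl12 and the receptors was not tested.

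**Figure D5:**
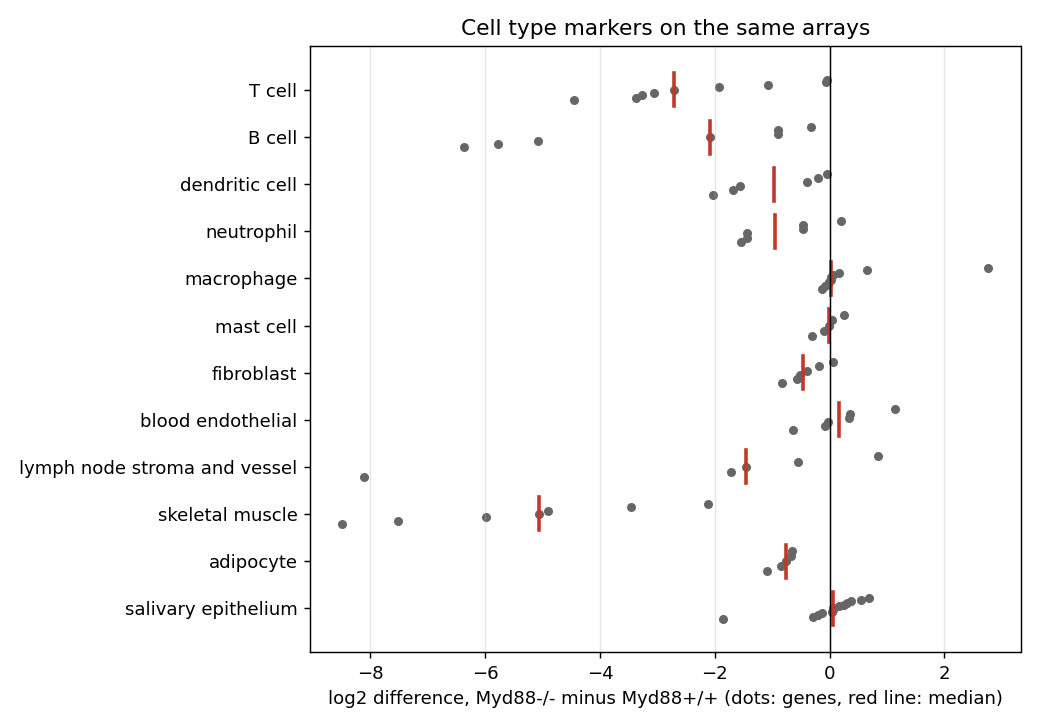
Log2 differences (Myd88-/- minus Myd88+/+) of the tested markers in 12 cell type lists; each dot is a gene and the red line the median of the list. Genes that passed the filter only through the Myd88+/+ arrays are included, T cell, B cell and skeletal muscle markers lie mostly below 0, and macrophage and salivary epithelium medians lie near 0.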

How the data were processed

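The authors extracted total RNA with Trizol, labelled cRNA with Cy3 and made the scanner output of each array with Agilent Feature Extraction 10.7.3.1. The deposited processed signal is an intensity, corrected for background but not normalized between arrays. Probe positions (NCBI37/mm9) and gene names came from the same files. The 4 value columns of a deposited table with all arrays carry names that match no single sample and were left out.

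For 59305 non-control spots, log2 of the processed signal was expressed relative to each array's 75th percentile. Outlier spots (99 to 131 an array) were left out, no spot was saturated, and spots of a probe were averaged. Testing required a probe to be well above background in 1 genotype or both, on each of its arrays, and a gene with several such probes was represented by the brightest. The genotypes were compared by limma (version 3.58.1, R version 4.3.3), and p-values were adjusted over 22312 genes by the Benjamini-Hochberg method at a threshold of 0.05. An exact permutation test of 2 against 2 arrays cannot go below p = 0.333. The number of arrays limits the precision. The script was tested on simulated data. Some single genes of the receptor and marker lists are counted but not reported here.

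Named were all ligands, those with an unadjusted p under 0.05 or a difference of at least 1 and the 4 of highest level with full statistics, and up to 6 genes of each other list. The members, lists and tests were chosen with earlier results of these data known. All 28 symbols matched RefSeq, whose promoters (GRCm38.p6) were found for 11 of the 20 tested ligands. Motifs were searched on both strands. Besides those given in the text, an interferon-stimulated response element and TGANTCA were each found in 1 of these 11, against 3.04% and 6.87% of all windows. Of the cell type lists not described in the text, 1 of 3 dendritic cell (a list that holds Ccl17 and Ccl22), 1 of 4 neutrophil, 0 of 5 mast cell, 1 of 6 blood endothelial, 1 of 2 lymphatic endothelial and 2 of 5 adipocyte markers well above background on all 4 arrays were lower at an unadjusted p under 0.05. At the same threshold 1 of these blood endothelial markers was higher, and 0 of these markers in the other lists named. Over all genes well above background on all 4 arrays, 6.68% were lower and 11.6% higher. In the analysis, 16 alternatives were planned and 1 was added after the data were seen.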

Additional observations from a re-analysis of the deposited data

How the results depend on the processing

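Under 17 alternatives the differences of Ccl5 (-2.69 to -1.62), Ccl8 (-2.59 to -1.83), Cxcl12 (-0.88 to -0.52), Cxcl1 (0.40 to 0.95) and Cxcl14 (0.26 to 0.40) kept their direction. With limma, 79 genes over the array were called after normexp background correction, 402 after median scaling and 482 with trended and robust moderation, and 1 with the methods' t-test, against 0 otherwise. Median scaling called 2 ligands (Ccl5 and Ccl8) and trended and robust moderation 1 (Ccl8). In the fit after median scaling all tested ligands had the same SE of 0.54. The 2 ligands higher at an unadjusted p under 0.05 became 0 after median scaling (1.08% of all genes, against 9.82%) and with no filter on dim probes (4.06%), and 1 under quantile normalization (7.23%), cyclic loess (7.05%), trended and robust moderation (12.4%) and the methods' t-test (9%). The 13 ligands without overlap became 4 after median scaling, as the share of all genes went from 52% to 13.7%. The 3 lower ligands were Ccl7, Ccl8 and Cxcl12 in the methods' t-test, without Ccl5. The cause was not tested.

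Differences near 0 changed sign: Ccl17 (0.039) and Ccl7 (0.10) after normexp, Ccl3 under quantile normalization (-0.074), a percentile over detected probes (-0.050), median scaling (-0.044) and cyclic loess (-0.12), Ccl2 under cyclic loess (-0.0026), and Ccl27a as the mean of its probes (0.067). The median difference of the ligands became -0.059 under cyclic loess. Leaving out 1 array at a time gave 0 ligands called, 0 to 1 higher and 3 lower at an unadjusted p under 0.05, 16 to 17 without overlap (74.2% to 77.8% of all genes) and a median of -0.084 to 0.079. The ranges were -0.14 to 0.36 for Ccl12, -0.57 to 0.39 for Ccl24, -0.33 to 0.26 for Ccl17, -0.24 to 0.25 for Ccl3 and -0.070 to 0.25 for Cxcl17. A lone array was assumed to vary like the other group.

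Over all genes, 2190 were higher and 1525 lower at an unadjusted p under 0.05, and 1653 and 1887 with the percentile over detected probes. Same-numbered arrays deviated in opposite ways (r = -0.37 over 22312 genes), and nothing in the labels pairs them. With the replicate block 1 ligand was higher and 3 lower at an unadjusted p under 0.05, and over all genes 1238 were higher and 1172 lower, with 0 called. The crossed replicate block, added after the data were seen, gave 1 ligand higher and 3 lower, 2317 genes higher and 1840 lower, and 0 called. With 2 arrays a genotype, small differences of dim ligands were not detectable here.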
